A study of Homo sapiens with 6 samples.

Results

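Kinesins are motor proteins that use ATP to walk along microtubules or to take them apart. In dividing cells the mitotic kinesins build the bipolar spindle, align the chromosomes and complete cytokinesis, and their genes are transcribed mainly late in the cell cycle, before and during mitosis. Transport kinesins carry vesicles, organelles and ciliary components and are expressed in dividing and resting cells alike. The kinesin genes were chosen by name alone, as the symbols KIF followed by a number and at most 1 letter, together with KIFC1, KIFC2 and KIFC3, and no measured value entered the choice. This gave 42 of the 19470 genes in the count table, which were divided by their known functions into 14 mitotic kinesins, 15 transport kinesins and 13 kinesins with other roles, chiefly in cilia and in microtubule growth. Unlike the choice of genes, this division was made with earlier results of these data known. CENPE and STARD9 are kinesins that the naming rule leaves out, and they are described with the kinesin subunits.

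RNA was sequenced from HCCC9810 cells, an established human cholangiocarcinoma line of wild type genotype, after 24 h with 20 μM isolinderalactone (ILL), a sesquiterpene lactone, or with vehicle (control) for 24 h, in 3 libraries per group. Total counts lay between 34282764 and 37758569 per library. Nothing in the labels says that the libraries of a group came from separate cultures, so p-values measure the spread between these libraries, which may be technical. After a filter on low counts, 13066 genes were tested with the edgeR quasi-likelihood test, and a gene was called a differentially expressed gene (DEG) at a Benjamini-Hochberg adjusted p under 0.05 with a fold change above 2 or below 0.5. All 6 biliary epithelial markers examined were detected, among them KRT19 at 1566 ± 85.9 FPKM in control and 1316 ± 65.3 FPKM in ILL libraries (SD, n = 3 each). Of 10 markers of other cell types, PTPRC, CD3E, DCN, COL1A2, PECAM1 and VWF stayed below 0.1 FPKM in every library and COL1A1, ALB and APOA1 lay between 0.604 and 6.61 FPKM, while CD68, a lysosomal protein of macrophages that other cells also express, was at 22.7 ± 1.5 FPKM in control and 64.8 ± 1.60 FPKM in ILL libraries (SD, n = 3 each), and its part in the results was not tested.

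The promoters of mitotic genes often carry the cell cycle genes homology region (CHR), a short element bound by the MuvB complexes, with a CCAAT box, the site of NF-Y, a short distance away. RefSeq promoters (GRCh38.p14, from 250 bases before to 50 bases after each start) were given for 34 of the 42 kinesin genes, which leaves out KIF5A, KIF13B, KIF21B, KIF26B, KIF19, KIF27, KIFC2 and KIFC3. They were searched on both strands for the CHR core, TTTGAA or TTCGAA, and for the letters CCAAT, a search chosen after the expression values were seen. A CHR core was found in 11 of 14 mitotic kinesins, in 1 of 11 transport kinesins and in 1 of 9 other kinesins, beside 19.5% of the 27305 genes with a promoter and 17.5% of the 15212 such genes in the count table. CCAAT was found in 11 of 14 mitotic, 4 of 11 transport and 3 of 9 other kinesins, beside 39.7% of all genes. Both stood in the same promoter window in 10 of 14 mitotic kinesins, in 1 transport kinesin and in 1 other kinesin, beside 7.85% of all genes. These class shares do not cover KIF5A, KIF13B, KIF21B and KIF26B, DEGs described below whose promoters were not given. A CHR core can share 1 base with a CCAAT box, but none did so in a kinesin promoter.

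The CHR cores of the 11 mitotic kinesins lay between 55 bases before and 36 bases after the nearest annotated start, where the first transcribed base is counted as 1. In 9 of the 10 with both elements the nearest CCAAT box was 4 to 45 bases from the core, and in KIF20B it was 117 bases away. The stretches below show 12 bases on either side of the core, read 5′ to 3′ on the strand that holds it, with the core in capitals. They were chosen to set spindle, chromosome and cytokinesis motors beside KIF24 and KIF5B, the only CHR-bearing members of the other classes among the 34 searched.
KIF11 (chr10:92593090-92593119, minus strand): tcggcgcctcaaTTTGAAaaagagacagag
KIF15 (chr3:44761747-44761776, minus strand): gatggccgcaaaTTTGAAtttggcgcttgg
KIF18A (chr11:28108149-28108178, minus strand): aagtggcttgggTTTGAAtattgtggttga
KIF18B (chr17:44947754-44947783, minus strand): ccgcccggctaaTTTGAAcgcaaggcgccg
KIFC1 (chr6:33391815-33391844, minus strand): acacccgccactTTTGAAttccaacggcca
KIF14 (chr1:200620733-200620762, plus strand): agaaggccgcaaTTTGAAtgggcgccccgc
KIF20B (chr10:89701602-89701631, plus strand): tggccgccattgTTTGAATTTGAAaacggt
KIF23 (chr15:69414282-69414311, plus strand): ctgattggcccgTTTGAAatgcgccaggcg
KIF22 (chr16:29790712-29790741, plus strand): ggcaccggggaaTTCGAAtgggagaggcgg
KIF4A (chrX:70290058-70290087, plus strand): ctccgggacggaTTTGAAacttggcggtta
KIF4B (chr5:155013746-155013775, plus strand): ctctgggagggaTTTGAAacttggcggtta
KIF24 (chr9:34329250-34329279, minus strand): acagcgcgggcgTTCGAActggcgcttggc
KIF5B (chr10:32056548-32056577, minus strand): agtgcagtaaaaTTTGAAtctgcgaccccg
The KIF4A and KIF4B stretches were identical at 28 of 30 bases. KIF4B is an intronless copy of KIF4A. KIF20B carried 2 cores in tandem, and KIF22 carried the TTCGAA form, as did KIF24. KIF20A and KIF2C, which also fell with ILL, held no CHR core in this window, and KIF2C held no CCAAT box either. KIF20A held 2 CCAAT boxes on the opposite strand, shown in capitals as ATTGG in the gene's own direction.
KIF20A (chr5:138179006-138179034, plus strand): ttccttacgcggATTGGtagctgcaggct
KIF20A (chr5:138179033-138179061, plus strand): cttccctatctgATTGGccgaacgaacgc
A match is only a description of the letters in these windows, and no binding was measured.

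**Figure D1:**
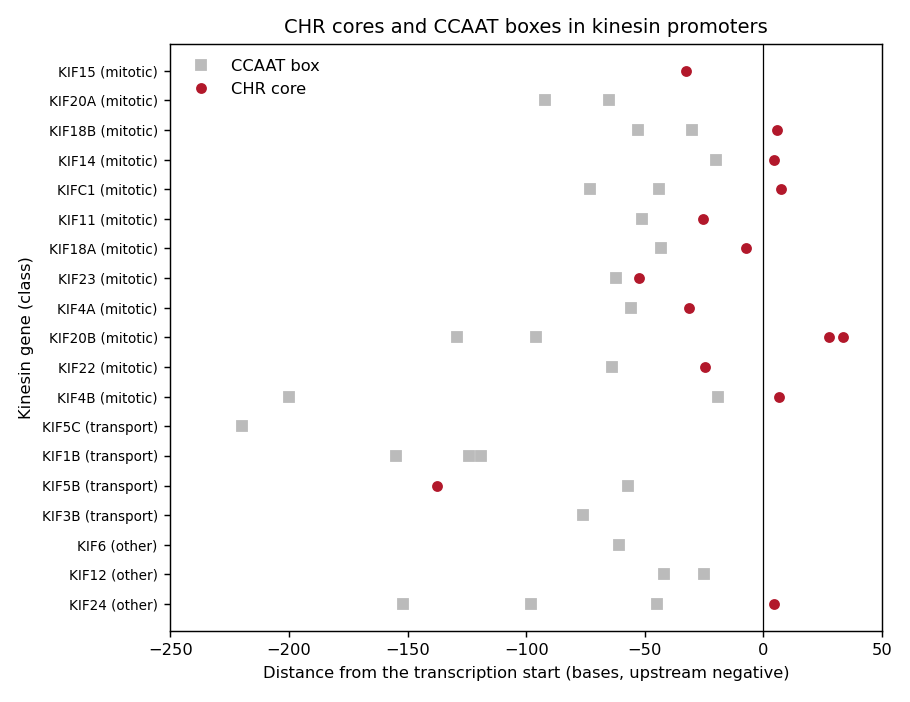
Positions of CHR cores (red circles) and CCAAT boxes (grey squares) in the 19 kinesin promoters that hold either, with the distance from the transcription start in bases on the x axis and the gene and its class on the y axis, each class ordered by fold change. The mitotic kinesins have their CHR cores between 55 bases before and 36 bases after the start, whereas the single core of a transport kinesin, KIF5B, begins 140 bases before it.

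Mitotic kinesins were markedly lower in ILL-treated cells. Of the 14 genes, 13 passed the filter and were DEGs lower with ILL, against 11.4% of all tested genes called lower, and 0 were higher by edgeR, also at an unadjusted p under 0.05 and by DESeq2. The log2 fold changes of the 13 ran from -3.44 to -2.18 with a median of -2.88, beside a median of 0.00 over all tested genes. KIF4B passed the filter only through its control counts, and without it the remaining 12 ran from -3.44 to -2.33 with a median of -2.93. Since these are bulk libraries, fewer cells in division and less kinesin RNA per cell cannot be told apart.

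Among the motors that build and shape the spindle, KIF11 (Eg5) slides antiparallel microtubules apart, and inhibitors of it arrest cells with a single pole. In control libraries it had 3495, 3166 and 2933 counts, given here and throughout in the order of replicates 1, 2 and 3, and in ILL libraries 460, 384 and 402. Every ILL library was far below every control library, a log2 fold change of -2.88 (SE 0.08, adjusted p = 2.05e-20 by edgeR), that is 7.35-fold lower. KIF15, which can stand in for KIF11 in keeping the poles apart, had 943, 888 and 907 counts in control and 94, 75 and 71 in ILL libraries, with a log2 fold change of -3.44 (SE 0.13, adjusted p = 1.27e-17 by edgeR), or 10.9-fold lower. The motor and its backup thus fell together, with 95% intervals of the log2 fold change from -3.04 to -2.72 for KIF11 and from -3.71 to -3.18 for KIF15. KIFC1 (HSET), a minus-end directed motor that focuses the poles and clusters extra centrosomes, had 3817, 3364 and 3745 counts in control and 437, 421 and 463 in ILL libraries. It was 7.90-fold lower, at -2.98 on the log2 scale (SE 0.07, adjusted p = 3.28e-21 by edgeR).

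KIF2C (MCAK), which depolymerises microtubules at centromeres to release wrong attachments, had 2473, 2211 and 2295 counts in control and 233, 237 and 234 in ILL libraries. The ILL libraries differed little from each other, and the fall was 9.46-fold (log2 -3.24, SE 0.08, adjusted p = 3.88e-21 by edgeR). KIF18B, which shortens astral microtubules, had 2084, 1863 and 1641 counts in control and 110, 199 and 222 in ILL libraries. Its log2 fold change was -3.33 (SE 0.14, adjusted p = 1.21e-16 by edgeR), with ILL replicate 1 below the other 2 ILL libraries. KIF2B, a microtubule depolymerase related to KIF2C, was at 0 counts in all 6 libraries, against a floor of 3 counts per library, so no difference was detectable in it.

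Of the chromosome motors, KIF22 (KID) pushes chromosome arms away from the poles and was the most abundant mitotic kinesin in control libraries at 40.8 ± 2.83 FPKM (SD, n = 3). Its counts were 3817, 3095 and 3568 in control and 676, 690 and 616 in ILL libraries, a log2 fold change of -2.33 (SE 0.07, adjusted p = 4.27e-19 by edgeR). KIF18A, which dampens kinetochore microtubules to align the chromosomes, had 2431, 2164 and 2255 counts in control and 274, 316 and 342 in ILL libraries, a log2 fold change of -2.81 (SE 0.08, adjusted p = 1.59e-19 by edgeR). KIF4A, a motor of chromosome arms and of the spindle midzone, had 1698, 1331 and 1572 counts in control and 222, 194 and 217 in ILL libraries and changed by -2.79 (log2, SE 0.10, adjusted p = 3.03e-18 by edgeR). In none of these 3 genes did an ILL library reach the lowest control library. Such separation was common, since 4959 of the 13066 tested genes were lower in every ILL library than in every control library.

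KIF4B had 15, 16 and 13 counts in control and 2, 1 and 6 in ILL libraries, from 0.827% to 1.20% of the KIF4A count in control and from 0.515% to 2.76% in ILL libraries. Reads of the near-identical copies can be assigned to either, so these few counts are uncertain. The fitted log2 fold change was -2.18 (SE 0.75, adjusted p = 0.0119 by edgeR). It moved to -3.12 without ILL replicate 3 and lost significance when ILL replicate 1 was left out (adjusted p = 0.0521 by edgeR) and when ILL replicate 2 was left out (adjusted p = 0.0639 by edgeR).

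The motors of the midzone and midbody fell as well. KIF20A (MKLP2), which brings the chromosomal passenger complex to the midzone, had 3896, 3613 and 3232 counts in control and 310, 345 and 327 in ILL libraries, and was 10.4-fold lower (log2 -3.38, SE 0.08, adjusted p = 1.31e-21 by edgeR). KIF23 (MKLP1), the motor subunit of centralspindlin, had 3982, 3367 and 3711 counts in control and 411, 541 and 555 in ILL libraries, 7.0-fold lower (log2 -2.81, SE 0.09, adjusted p = 3.28e-19 by edgeR). Per length, KIF20A stood at 32.5 ± 2.11 and KIF23 at 27.5 ± 1.24 FPKM in control libraries, against 2.97 ± 0.167 and 3.74 ± 0.590 FPKM in ILL libraries (SD, n = 3 each). KIF20B (MPP1), a relative of both, had 3600, 3175 and 2899 counts in control and 418, 546 and 525 in ILL libraries, with a log2 fold change of -2.63 (SE 0.09, adjusted p = 9.5e-19 by edgeR). KIF14, a midbody motor that binds PRC1 and citron kinase, had 2248, 1794 and 1799 counts in control and 181, 192 and 259 in ILL libraries, a change of -3.14 (log2, SE 0.11, adjusted p = 1.55e-18 by edgeR). In each of these 4 genes the groups were separated by a wide gap.

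By step of division, the median log2 fold change was -3.24 over the 5 tested spindle motors, -2.56 over the 4 chromosome motors and -2.97 over the 4 cytokinesis motors. The chromosome median includes KIF4B, and without it the middle value of the other 3 was that of KIF4A, -2.79. Differences between the steps were not tested. Per library, the median over the mitotic kinesins relative to the control mean was -2.95, -2.92 and -2.76 on the log2 scale in ILL replicates 1 to 3, so that the fall was of like size in all 3 ILL libraries.

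**Figure D2:**
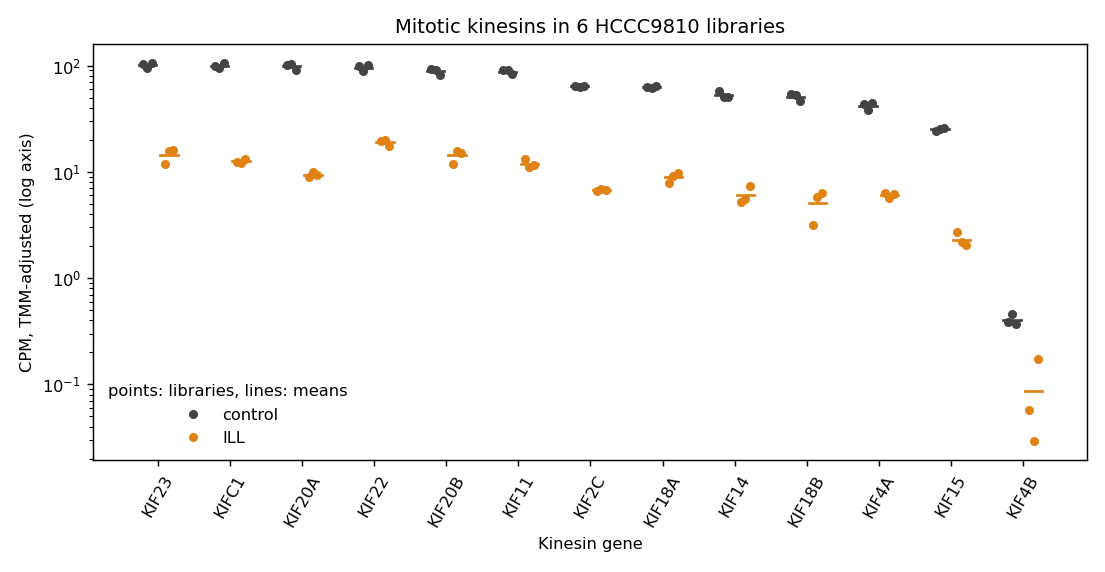
CPM (counts scaled to library size after TMM adjustment, log axis) of the 13 mitotic kinesins that passed the filter, by gene on the x axis, with 1 point per library and a line at each group mean (3 control and 3 ILL libraries). Every ILL point lies below every control point of its gene, and KIF4B sits below 1 CPM throughout. Over all 13066 tested genes, 4959 were lower in every ILL library than in every control library, and 4894 were higher.

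Transport kinesins, in contrast, were mostly level or modestly higher. Among 15 genes, 14 passed the filter, and 2 were DEGs, KIF13B and KIF5A, both higher with ILL, a share near the 12.5% of all tested genes called higher. KIF5A passed the filter only through its ILL counts, and without such genes 1 DEG remained. By adjusted p alone, 9 were higher, KIF5A among them, and 1 lower, against 36.2% of all tested genes higher and 36.9% lower. The median log2 fold change was 0.55, with a range from -0.75 to 3.33. Without KIF5A the middle value was that of KIFC2, 0.52, and the highest that of KIF13B, 1.38.

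KIF13B (GAKIN), a carrier of DLG1-bound membrane cargo, had 1226, 1125 and 1160 counts in control and 2876, 3064 and 2768 in ILL libraries. All ILL libraries were above all control libraries, at 2.60-fold the control level (log2 1.38, SE 0.07, adjusted p = 1.66e-15 by edgeR). Its nearest relative KIF13A, an endosomal carrier, had 3751, 3329 and 3783 counts in control and 3427, 3407 and 3424 in ILL libraries. The KIF13A groups overlapped, and its log2 fold change of -0.02 had a 95% interval from -0.14 to 0.10 (adjusted p = 0.802 by edgeR).

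Conventional kinesin is a pair of KIF5 heavy chains with light chains. KIF5B, the ubiquitous heavy chain, had 13168, 11651 and 11753 counts in control and 16816, 15799 and 16501 in ILL libraries. It rose in every ILL library, by less than the fold cutoff, with a log2 fold change of 0.49 (SE 0.05, adjusted p = 1.35e-09 by edgeR). KIF5A, a neuronal heavy chain, had 5, 0 and 0 counts in control and 28, 12 and 11 in ILL libraries, with a fitted log2 fold change of 3.33 (SE 0.90, adjusted p = 0.00201 by edgeR). All 5 control counts came from control replicate 1. Without that library the fitted value was 7.10, which is set against libraries at 0 and is no bound. Even in ILL libraries KIF5A reached only 0.0825 ± 0.0463 FPKM (SD, n = 3), beside 75.7 ± 2.18 FPKM for KIF5B. KIF5C, another neuronal heavy chain, had 6, 2 and 3 counts in control and 5, 4 and 11 in ILL libraries and was not tested.

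Heterotrimeric kinesin joins KIF3A with KIF3B or KIF3C and carries cargo along cilia. KIF3A had 740, 573 and 650 counts in control and 664, 708 and 753 in ILL libraries, overlapping between the groups, with a log2 fold change of 0.18 (95% interval -0.01 to 0.38, adjusted p = 0.0862 by edgeR). Its partners were higher in every ILL library. KIF3B had 2936, 2323 and 2734 counts in control and 3700, 3923 and 3899 in ILL libraries (log2 0.60, SE 0.06, adjusted p = 6.73e-09 by edgeR). For KIF3C the counts were 564, 485 and 503 in control and 950, 904 and 847 in ILL libraries (log2 0.87, SE 0.09, adjusted p = 5.26e-09 by edgeR). KIF17, a homodimeric ciliary motor, stayed at or below 18 counts per library and did not pass the test, with a fitted log2 fold change of 1.25 (95% interval -0.16 to 2.65, adjusted p = 0.102 by edgeR).

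The remaining vesicle carriers stayed within the fold cutoff. KIF1C, an integrin vesicle and mRNA carrier and the most abundant kinesin of control cells, was at 60.4 ± 2.56 FPKM in control and 63.3 ± 0.447 FPKM in ILL libraries (SD, n = 3 each), a log2 fold change of 0.14 (adjusted p = 0.0167 by edgeR). That call was lost with scaling by library size (adjusted p = 0.218), on FPKM with limma, and without control replicate 2 (adjusted p = 0.144 by edgeR). KIF1B, a carrier of mitochondria, changed by 0.37 (adjusted p = 2.39e-05 by edgeR), and KIF16B, a carrier of early endosomes, by 0.81 (adjusted p = 2.05e-07 by edgeR). KIF1A, a synaptic vesicle carrier with 24 to 56 counts per library, had a log2 fold change of 0.57 and did not pass the test (adjusted p = 0.205 by edgeR, 95% interval -0.26 to 1.4). The minus-end motors went opposite ways. KIFC2 had 1672, 1564 and 1385 counts in control and 2119, 2102 and 2115 in ILL libraries (log2 0.52, adjusted p = 1.31e-07 by edgeR). KIFC3, a motor of adherens junctions and apical transport, had 1443, 1327 and 1382 counts in control and 889, 753 and 711 in ILL libraries (log2 -0.75, adjusted p = 1.24e-08 by edgeR), and was the 1 transport kinesin that fell.

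**Figure D3:**
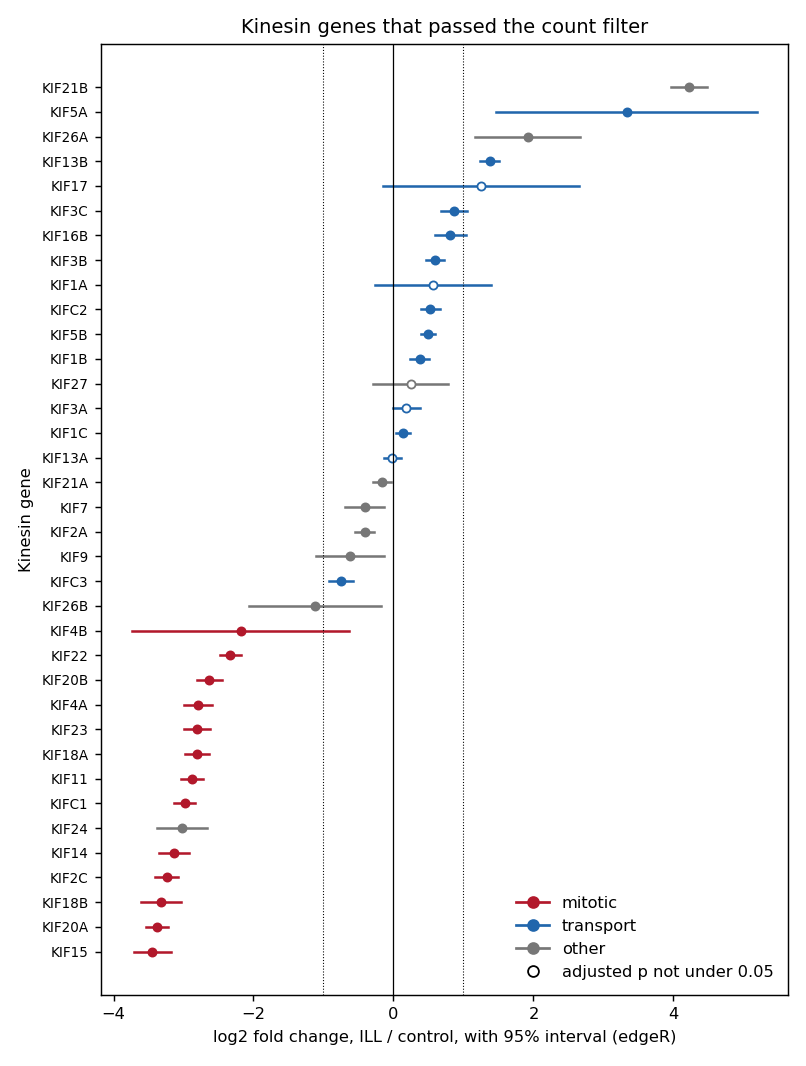
Log2 fold change of ILL over control with its 95% interval (x axis, edgeR) for the 36 kinesin genes that passed the filter (y axis), coloured by class, with open points for genes whose adjusted p was not under 0.05 and dotted lines at a fold change of 2 and 0.5. The 13 mitotic kinesins occupy the low end together with KIF24, from -3.44 to -2.18, and the transport kinesins lie between -0.75 and 3.33.

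The kinesins with other roles did not share a direction. Of 13 genes, 9 passed the filter, 2 were DEGs higher and 2 DEGs lower with ILL, against 12.5% and 11.4% of all tested genes. By adjusted p alone 2 were higher and 6 lower, against 36.2% and 36.9%. KIF21B, a neuronal and T cell motor that limits microtubule growth, had 62, 89 and 71 counts in control and 1302, 1288 and 1382 in ILL libraries, which was 18.7-fold higher (log2 4.22, SE 0.13, adjusted p = 1.59e-19 by edgeR). Its relative KIF21A had 2045, 1794 and 1799 counts in control and 1581, 1540 and 1671 in ILL libraries, a log2 fold change of -0.17 (adjusted p = 0.0223 by edgeR). That call was lost when control replicate 1 (adjusted p = 0.0738), ILL replicate 1 (adjusted p = 0.0604) or ILL replicate 2 (adjusted p = 0.0593) was left out, all by edgeR. Both genes had been far apart in level, at 0.212 ± 0.0486 FPKM for KIF21B and 8.28 ± 0.192 FPKM for KIF21A in control libraries, and stood at 3.76 ± 0.127 and 7.03 ± 0.261 FPKM in ILL libraries (SD, n = 3 each). The T cell gene CD3E was at 0 counts in 5 libraries and at 3 counts in ILL replicate 3. PTPRC, another marker of other cell types, had 0, 0 and 1 counts in control and 9, 0 and 1 in ILL libraries. The source of the KIF21B rise was not tested.

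KIF24, a centriolar microtubule depolymerase that restrains cilium assembly, moved with the mitotic kinesins. It had 417, 442 and 385 counts in control and 51, 45 and 50 in ILL libraries, 8.13-fold lower (log2 -3.02, SE 0.17, adjusted p = 6.69e-14 by edgeR). This gene also carries the CHR core shown above, with 3 CCAAT boxes upstream, the nearest 43 bases from the core. KIF5B, which was higher with ILL (log2 0.49), holds both elements as well, 75 bases apart. Whether the elements bear on either change was not tested. KIF2A, a relative of KIF2C that acts at spindle poles and in axons, fell by far less, from 1961, 1686 and 1797 counts in control to 1385, 1224 and 1298 in ILL libraries (log2 -0.41, SE 0.07, adjusted p = 7.47e-06 by edgeR).

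KIF26A and KIF26B, kinesins without ATPase activity, went in opposite directions. KIF26A had 33, 32 and 22 counts in control and 140, 118 and 56 in ILL libraries (log2 1.92, SE 0.37, adjusted p = 5.22e-05 by edgeR). KIF26B had 48, 79 and 35 counts in control and 10, 27 and 34 in ILL libraries, all ILL libraries below all control libraries by little (log2 -1.13, SE 0.46, adjusted p = 0.0305 by edgeR). The KIF26B call rests on single libraries, since it was -0.71 (adjusted p = 0.239 by edgeR) without control replicate 2 and -0.76 (adjusted p = 0.160 by edgeR) without ILL replicate 1. Among the ciliary kinesins, KIF7, the Hedgehog pathway organiser of the ciliary tip, had a log2 fold change of -0.41 (adjusted p = 0.00799 by edgeR), and the motile cilium kinesin KIF9 one of -0.62 (adjusted p = 0.0206 by edgeR). The KIF7 call was lost without control replicate 2 (-0.32, adjusted p = 0.0540 by edgeR). The KIF9 call was lost without control replicate 1 (adjusted p = 0.0562), control replicate 2 (adjusted p = 0.0592), ILL replicate 1 (adjusted p = 0.0788) or ILL replicate 2 (adjusted p = 0.0536), all by edgeR. KIF27, a paralog of KIF7, was at 0.25 (95% interval -0.29 to 0.78, adjusted p = 0.393 by edgeR) and did not pass the test. KIF12, KIF19, KIF25 and KIF6 had at most 8 counts in any library and were not tested.

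**Figure D4:**
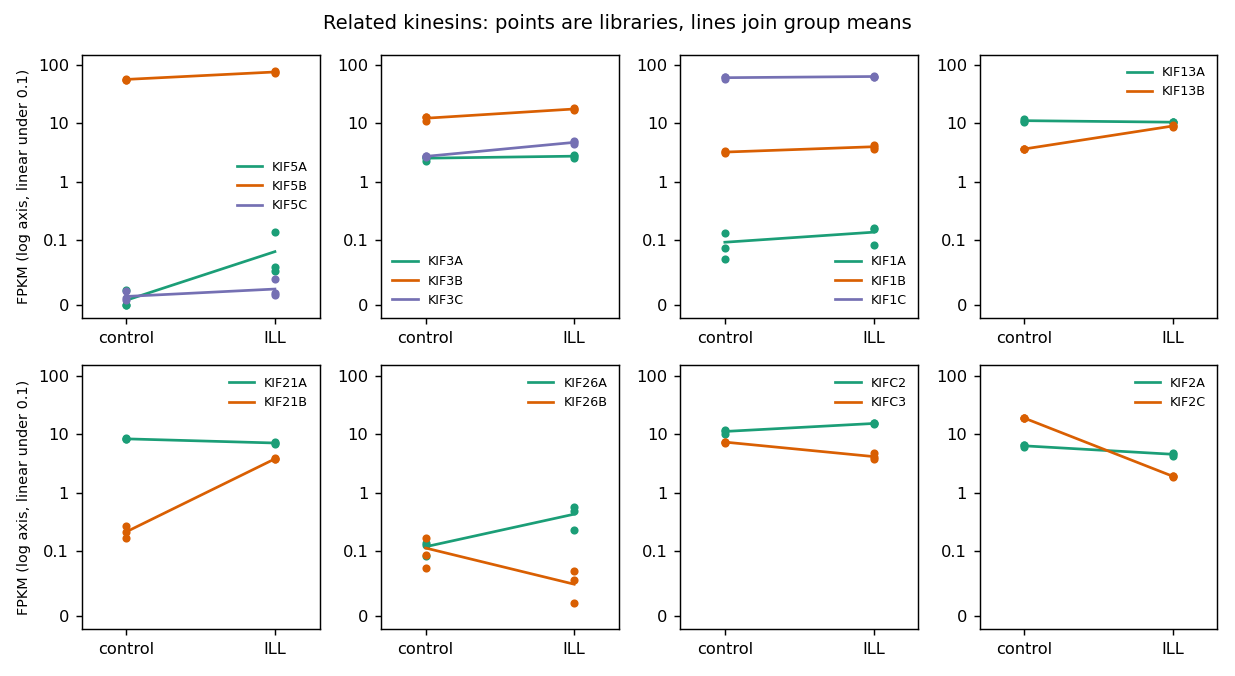
FPKM (y axis, log above 0.1 and linear below) in control and ILL libraries for 8 sets of related kinesins, with 1 point per library and lines joining the group means (n = 3 each). KIF13B and KIF21B rise toward the level of KIF13A and KIF21A, and KIF2C drops from above to below KIF2A.

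Levels of different kinesins were compared per length, in FPKM. Summed over the family, kinesin transcripts went from 425 ± 8.87 FPKM in control to 259 ± 0.891 FPKM in ILL libraries (SD, n = 3 each). The mitotic sum went from 233 ± 5.02 to 30.5 ± 1.20 FPKM, and the transport sum from 173 ± 4.12 to 210.0 ± 1.91 FPKM, while the other kinesins went from 19.8 ± 0.521 to 18.4 ± 0.407 FPKM (SD, n = 3 each). Mitotic kinesins therefore made up 54.8% ± 0.145 of kinesin FPKM in control and 11.8% ± 0.498 in ILL libraries, and transport kinesins 40.6% ± 0.279 and 81.1% ± 0.459 (SD, n = 3 each). In control cells KIF1C and KIF5B led the family, and the next 4 places were held by KIF22, KIFC1, KIF20A and KIF23. With ILL, KIF5B and KIF1C exchanged places, KIF3B moved from rank 11 to 3, KIFC2 from 13 to 4 and KIF13B from 21 to 6, and KIF20A went from rank 5 to 16. Genes that did not rise also gained rank. KIF13A went from 12 to 5 (log2 fold change -0.02), KIF21A from 16 to 8 (-0.17) and KIFC3 from 17 to 12 (-0.75). A rank depends on the levels of the other members, so a gain in rank is not by itself a rise of the gene. FPKM is relative to all counts of a library, so these sums describe shares of the RNA and not amounts per cell. The fold changes after TMM scaling are relative as well, and small ones depend most on the scaling. By edgeR, 9547 of the 13066 tested genes had an adjusted p under 0.05.

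**Figure D5:**
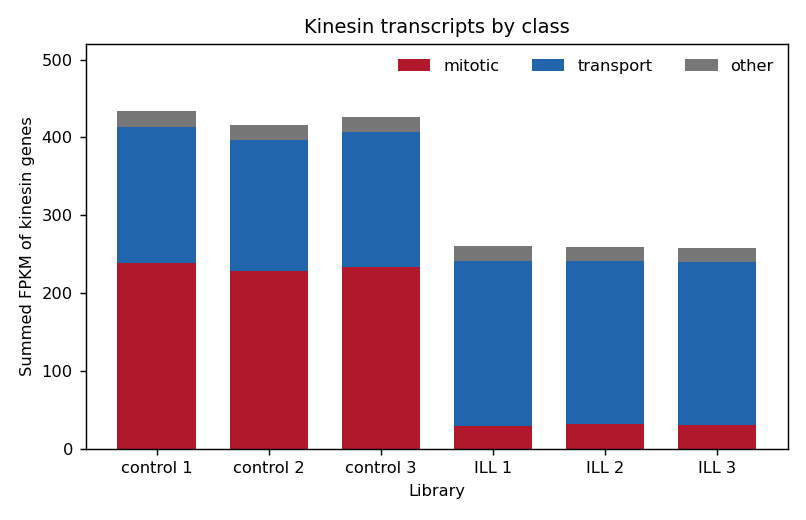
Summed FPKM of the kinesin genes (y axis) in each of the 6 libraries (x axis), stacked by class with mitotic in red, transport in blue and other in grey. The red segment shrinks from a mean of 233 FPKM in control libraries to 30.5 FPKM in ILL libraries, and the blue segment goes from 173 to 210.0 FPKM.

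Kinesins outside the naming rule and the non-motor subunits were examined as a list of 8 genes, of which 1 was a DEG higher and 2 were DEGs lower with ILL, against 12.5% and 11.4% of all tested genes. CENPE, the kinetochore motor that carries unaligned chromosomes to the plate, had 3087, 2845 and 2635 counts in control and 281, 309 and 385 in ILL libraries (log2 -3.07, SE 0.09, adjusted p = 1.09e-19 by edgeR). STARD9, a centriolar kinesin needed for pericentriolar cohesion in mitosis, had only 14, 10 and 20 counts in control and 3, 1 and 1 in ILL libraries (log2 -2.98, SE 0.83, adjusted p = 0.00247 by edgeR), and it passed the filter through its control counts alone. On the transport side, KLC3, a light chain of conventional kinesin, had 887, 865 and 883 counts in control and 2976, 2938 and 2779 in ILL libraries (log2 1.79, SE 0.07, adjusted p = 1.45e-17 by edgeR). KLC1, the main light chain, changed by 0.33 (adjusted p = 4.98e-06 by edgeR). KIFAP3, the accessory subunit that binds KIF3A with KIF3B, had 954, 771 and 838 counts in control and 1609, 1539 and 1549 in ILL libraries (log2 0.94, adjusted p = 2.24e-11 by edgeR). Of the others, named after their values were seen, the light chain KLC4 was at 0.41 (adjusted p = 0.0160 by edgeR), KIFBP, which binds and inhibits several kinesins, at -0.20 (adjusted p = 0.00930 by edgeR), and the light chain KLC2 at 0.07 (95% interval -0.05 to 0.18, adjusted p = 0.296 by edgeR).

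Of 11 cargo adaptors of kinesin, 10 were higher and 1 lower by adjusted p alone, against 36.2% and 36.9% of all tested genes, with a median log2 fold change of 0.51. The 1 adaptor that fell was RHOT2, a mitochondrial outer membrane protein that links mitochondria to their motors, named here after its value was seen, at -0.32 (adjusted p = 3.05e-05 by edgeR). Cytoplasmic dynein and dynactin, which move cargo the other way, gave 1 DEG, higher with ILL, among 22 tested of 23 genes, against 12.5% of all tested genes. By adjusted p alone 12 were higher and 4 lower, against 36.2% and 36.9% of all tested genes, with a median log2 fold change of 0.22. That DEG was DYNC1I1, a neuronal intermediate chain named after its value was seen, with 6, 4 and 5 counts in control and 24, 19 and 23 in ILL libraries, which passed the filter only through its ILL counts.

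Transcripts of proteins that work with the mitotic kinesins were lower as well. Of 16 such genes, 15 were DEGs, all lower with ILL, against 11.4% of all tested genes, with a median log2 fold change of -2.72. By the edgeR fit the 3 largest falls were in subunits of the passenger complex that KIF20A carries. BIRC5 had 8017, 7073 and 6994 counts in control and 613, 604 and 564 in ILL libraries (log2 -3.56, adjusted p = 1.43e-23 by edgeR). AURKB, its kinase, changed by -3.28 (adjusted p = 2.05e-20 by edgeR) and CDCA8, its borealin subunit, by -3.17 (adjusted p = 9.85e-19 by edgeR). The scaffold of the same complex, INCENP, named after its value was seen, fell less, at -2.19 (adjusted p = 7.89e-19 by edgeR). The exception was MAPRE1 (EB1), a general microtubule plus-end tracker that interphase cells also use, named here after its value was seen, at -0.02 (95% interval -0.12 to 0.09, adjusted p = 0.790 by edgeR).

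Transcription factors that act on mitotic promoters, 14 genes of the FOXM1, MuvB and NF-Y groups, gave 7 DEGs, all lower with ILL, against 11.4% of all tested genes. By adjusted p alone 11 were lower and 3 higher, against 36.9% and 36.2% of all tested genes, with a median log2 fold change of -0.89. FOXM1 had 13881, 13100 and 12340 counts in control and 1678, 2094 and 1903 in ILL libraries (log2 -2.73, SE 0.07, adjusted p = 5.63e-21 by edgeR). MYBL2, the B-MYB partner of MuvB, had 21869, 19242 and 19473 counts in control and 3164, 3471 and 3370 in ILL libraries (log2 -2.53, SE 0.05, adjusted p = 4.34e-22 by edgeR). RBL1 (p107), a pocket protein, changed by -2.26 (adjusted p = 5.73e-18 by edgeR). The NF-Y subunits, named after their values were seen, stayed within the fold cutoff. NFYA was at -0.16 (adjusted p = 0.0454), NFYB at -0.63 (adjusted p = 1.98e-07) and NFYC at 0.27 (adjusted p = 0.00533), all by edgeR. The other genes that rose were RBL2 (0.24, adjusted p = 0.00877 by edgeR) and LIN37 (0.47, adjusted p = 0.0247 by edgeR), also named after their values were seen. FOXM1 and MYBL2 are themselves transcribed in a cell cycle dependent way, and whether their fall bears on the kinesin genes was not tested.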

How the data were processed

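RNA-seq of 3 control and 3 ILL libraries of HCCC9810 cells was analysed, with groups and replicate numbers taken from the sample labels. The authors deposited raw counts of reads per gene symbol and FPKM values, in which each count is scaled by gene length and library total. Genome build GRCh38 and DESeq2 are named in the submitters' processing notes, while the aligner, the counting program, its annotation and its use of strand are not given in the sources used here, so overlapping and antisense genes cannot be told apart.

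Counts were filtered with filterByExpr, scaled by TMM and tested over all 13066 genes that passed with the quasi-likelihood test of edgeR 4.0.16 (R 4.3.3), with Benjamini-Hochberg adjustment and the study's cutoffs of 0.05 for the adjusted p and 2 or 0.5 for the fold change. The common biological coefficient of variation was 0.0717, and the fit was tested on simulated data. Total counts of 34282764 to 37758569 make the spread between libraries the main limit for well expressed genes, while counting error limits genes of few counts. Replicates of the same group were not duplicates of each other (chi-square per degree of freedom 5.15 to 11.8 for pairs of libraries). Each was counted as 1 replicate in the fit, but this spread cannot tell separate cultures from separate libraries of 1 culture.

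The kinesin classes and the comparison lists were written from general knowledge and were chosen with earlier results of these data known. All mitotic kinesins and all kinesin DEGs are named with their counts, other members by value, and of each list at most 3 DEGs at either end with a mean of at least 1 CPM, plus CENPE, STARD9, KIFAP3, KLC1, FOXM1 and MYBL2, except where the text says otherwise. As alternatives, the size factors of DESeq2 or plain library sizes replaced TMM, the filter was dropped or raised to 10 counts in each library, and further fits used DESeq2 1.42.0, a replicate block, limma 3.58.1 on log2 of FPKM plus 1 or plus 0.1, no fold cutoff, and each library left out in turn. Promoter windows are RefSeq's for GRCh38.p14, searched with Python 3.11.15. The result of 1 gene of the comparison lists is not reported here.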

Additional observations from a re-analysis of the deposited data

How the results depend on the processing

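Of 36 kinesin genes tested, 29 held both their sign and their adjusted p above or below 0.05 under every alternative in which they could be tested, leaving the fold cutoff aside. Of 519 such values 500 did so, 18 lost significance and 1 changed sign. The change of sign was KIF13A, from -0.055 without control replicate 2 to 0.037 without control replicate 3, which did not pass the test either way. An adjusted p under 0.05 was lost in KIF1C, KIF4B, KIF7, KIF9, KIF21A and KIF26B. The fold cutoff was missed by KIF24 (-0.98), KIF26A (0.34), KIF26B (-0.08), KIF4B (-0.10) and KIF5A (0.10) on log2(FPKM + 1) without a filter. Mitotic kinesins lower with ILL numbered 12 or 13 under every alternative.

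Scaling by library size moved the median of all genes to -0.07, the share of DEGs that were higher from 52.4% to 47.4% and the transport median to 0.48. With at least 10 counts in every library, 1 transport kinesin was a DEG higher with ILL, and so it was for members that passed the filter in both groups, an alternative chosen after seeing the data. On log2(FPKM + 1) with a mean FPKM of at least 1, which understates changes of low genes, limma called 1 transport kinesin and 1 other kinesin higher, 0 other kinesins lower, and 668 genes higher and 923 lower in all, with medians of -2.46 for mitotic and 0.42 for transport kinesins and a difference of -2.88. On log2(FPKM + 0.1) these were 1, 1 and 0, with 909 genes higher and a transport median of 0.42. On log2(FPKM + 1) without a filter they were 1, 1 and 0, with 680 genes higher and 929 lower, medians of -2.41 and 0.10 and a difference of -2.51. The adjusted p alone gave 9 transport kinesins higher and 1 lower, 6 other kinesins lower, and 4726 genes higher and 4821 lower. KIF24, KIF26A, KIF26B, KIF4B and KIF5A had a mean FPKM under 1, so the FPKM fits with that minimum did not test them. Other causes of these differences were not tested.

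With 1 library left out, the mitotic median ranged from -3.02 to -2.86, the transport median from 0.48 to 0.58, their difference from -3.53 to -3.38, and other kinesins lower with ILL from 1 to 2, the 1 being without control replicate 2 or ILL replicate 1, which ended the KIF26B call. Replicate numbers did not pair the libraries (correlations of same-numbered deviations 0.00116, -0.0149 and -0.0431), and the fit with the replicate block gave 13 mitotic kinesins lower, 2 transport kinesins higher and a difference of medians of -3.43. Genes with few counts, such as KIF4B and KIF5A, are limited by depth.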
